A study of Mus musculus with 24 samples.

Results

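The 41 genes described here are 22 glutathione transferases, chosen by their Gst and Mgst symbols, and 19 antioxidant genes that belong to or surround the Nrf2 response, out of 35275 genes in the count table. All 41 were found by symbol, each on 1 row. They were followed in liver RNA of male C57BL/6 mice, 8 to 10 weeks old and fasted for 24 hours, in 6 genotypes with 4 libraries each. The control libraries are labelled as wild type; the study describes its control mice as littermates with floxed Tsc1 and Cpt2 alleles. Tsc1L-/- livers lack Tsc1, an inhibitor of mTorc1, and Cpt2L-/- livers lack Cpt2, an enzyme needed to bring long-chain fatty acids into mitochondrial β-oxidation. Livers lacking both genes are called DKO. In these 3 genotypes the Cre was driven by the albumin promoter, so the deletion is aimed at hepatocytes. The sources used here do not say which other liver cells keep the gene. The remaining groups are PPAR alpha knockout mice (Ppara KO) and Cpt2L-/- Ppara KO mice (Cpt2 Ppara KO); the labels do not say in which cells Ppara was deleted. The labels number the libraries of a genotype without saying that each came from its own mouse, so the p-values measure the spread between libraries.

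Glutathione transferases join the tripeptide glutathione to reactive compounds, which marks them for export from the cell, and the liver holds large amounts of them. The alpha, mu, pi, theta, kappa, omega and zeta classes carry the symbols Gsta, Gstm, Gstp, Gstt, Gstk, Gsto and Gstz, and the Mgst genes encode a separate family in membranes. Nrf2, the protein of Nfe2l2, is held at a low level by Keap1. When electrophiles or oxidants disable Keap1, Nrf2 enters the nucleus and binds antioxidant response elements of genes for glutathione synthesis, the thioredoxin system and several transferases.

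The core of that element, TGACNNNGC, was looked for on both strands of the RefSeq promoter windows of GRCm38.p6, each holding 250 bases before and 50 bases after a gene start. It was present in 11 of the 35 genes described here that have a window, 31.4%. Of all 27025 genes with a window, 3781 had it in at least 1 window, 13.99%. It was present in 7 of 15 antioxidant genes with a window, 46.7%, and in 4 of 20 such transferase genes. Gclc, Gsr, Gsta4, Gstt2, Hmox1 and Prdx6 have no window in the table. A match is a description of these letters and not a binding site. Stretches of 49 bases around the match are shown for 4 antioxidant genes of the Nrf2 response and for Gsta3. Gsta3 is an abundant transferase that fell in Cpt2L-/- and DKO livers. The stretches are written 5′ to 3′ on the strand of the gene, with the match or its reverse complement in capitals.
Txnrd1, chr10:82859094-82859142, + strand: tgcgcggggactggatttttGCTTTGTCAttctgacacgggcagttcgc
Prdx1, chr4:116685446-116685494, + strand: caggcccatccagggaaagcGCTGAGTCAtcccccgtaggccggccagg
Gclm, chr3:122245403-122245451, + strand: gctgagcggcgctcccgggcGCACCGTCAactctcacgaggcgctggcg
G6pdx, chrX:74428909-74428957, - strand: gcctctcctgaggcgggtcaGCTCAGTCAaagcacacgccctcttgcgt
Gsta3, chr1:21240444-21240492, + strand: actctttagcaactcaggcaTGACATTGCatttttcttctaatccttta

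Total counts per library ran from 14470968 to 20371204. The libraries fell into sets that the labels do not name. Cd1d2, Rps3a3, Hist1h2bq, Hist1h2al and Gm6472, genes chosen for this check after their values were seen, were at 1.19 CPM (counts scaled to library size after TMM normalization) or more in all 12 libraries of control, Tsc1L-/- and DKO livers. Cd1d2 lay between 11 and 61.6 CPM in those libraries and at 0.868 CPM or less in the 12 libraries of Cpt2L-/-, Ppara KO and Cpt2 Ppara KO livers. Comparisons of Tsc1L-/- with control, DKO with control, DKO with Tsc1L-/-, Cpt2 Ppara KO with Cpt2L-/- and Cpt2 Ppara KO with Ppara KO stay within a set. In Cpt2L-/-, Ppara KO or Cpt2 Ppara KO against control, in DKO against Cpt2L-/- and in both interactions, set and genotype cannot be told apart. The genes of this check mark that division, and cannot show whether libraries within a set also differ by batch. Tsc1 averaged 38.4 CPM in control, 24.5 in Tsc1L-/- and 16.4 in DKO libraries, and Ppara averaged 258 in control, 27.3 in Ppara KO and 50.7 in Cpt2 Ppara KO libraries. Cpt2 averaged 98.6 CPM in control and 91.6 in Cpt2L-/- libraries, so the gene counts do not check that label.

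All 8 hepatocyte markers examined were detected in every group, and Alb alone averaged 43859 CPM in control livers. Their summed level was 68298 to 92078 CPM in control, 42931 to 64916 in Cpt2L-/-, 31909 to 41049 in DKO and 64757 to 100121 in Ppara KO libraries. The 7 Kupffer cell and macrophage markers found of 8 listed summed to 218 to 376 CPM in control and 162 to 276 in DKO libraries. Within that list Cd68 went the other way, at 6.32 to 9.84 CPM in control, 22.5 to 50.4 in Cpt2L-/-, 34.6 to 123 in DKO and 24.3 to 40.4 in Cpt2 Ppara KO libraries, while Clec4f was at 69.9 to 102 in control and 38.1 to 57.7 in DKO libraries. The 6 stellate cell and fibroblast markers summed to 182 to 282 CPM in control libraries. Tsc1L-/- libraries, at 125 to 172, and DKO libraries, at 118 to 144, lay wholly below control. The 6 cholangiocyte markers summed to 20.6 to 33.9 CPM in control and 25.1 to 48.4 in Ppara KO libraries. In Cpt2 Ppara KO libraries the sum was 13.1 to 20.8 CPM. Cftr was at or below 3 counts in every control and Cpt2 Ppara KO library. Within that list Sox9 averaged 3.26 CPM in control and 16.4 in Ppara KO libraries, and Krt7 0.745 and 1.82. Spp1, Krt19 and Epcam went the other way, averaging 19.4 and 17.6, 1.59 and 1.15, and 2.03 and 1.75 CPM. The 6 endothelial markers summed to 291 to 334 CPM in control, 285 to 378 in Ppara KO and 139 to 257 in Cpt2 Ppara KO libraries. Within that list Clec4g averaged 28.3, 25.8 and 43.8 CPM in these groups in turn, and Lyve1 19.8, 69.9 and 30.1. The 6 erythroid markers summed to 339 to 787 CPM in control and 426 to 2054 in Ppara KO libraries. The part of these differences in the results below was not tested, and in bulk liver fewer cells of a type and less RNA per cell cannot be told apart.

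In control livers the transferases spanned a wide range of levels. On the length-corrected FPKM scale, Mgst1, a membrane-bound transferase, led at 1981 ± 195 (SD, n = 4), followed among transferases by Gstp1 at 1080 ± 155, Gstz1 at 307 ± 20.2, Gstm1 at 306 ± 82.9 and Gsta3 at 304 ± 75.1. The last 3 did not differ beyond their spread. At the other end Gsta1 was at 1.32 ± 1.34 FPKM and Mgst2 at 0.0599 ± 0.0308. Of the antioxidant genes, Gpx1, a glutathione peroxidase, was at 1813 ± 143 FPKM, Sod1, the cytosolic superoxide dismutase, at 1210 ± 45.3 and Cat, the peroxisomal catalase, at 896 ± 39.1. Hmox1 at 8.61 ± 1.98 and Nqo1 at 7.16 ± 0.645 FPKM were low. Mgst2, at 0.00 to 1.98 CPM over the 24 libraries, failed the filter on low counts, and the other 40 genes were tested in every comparison.

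**Figure D1:**
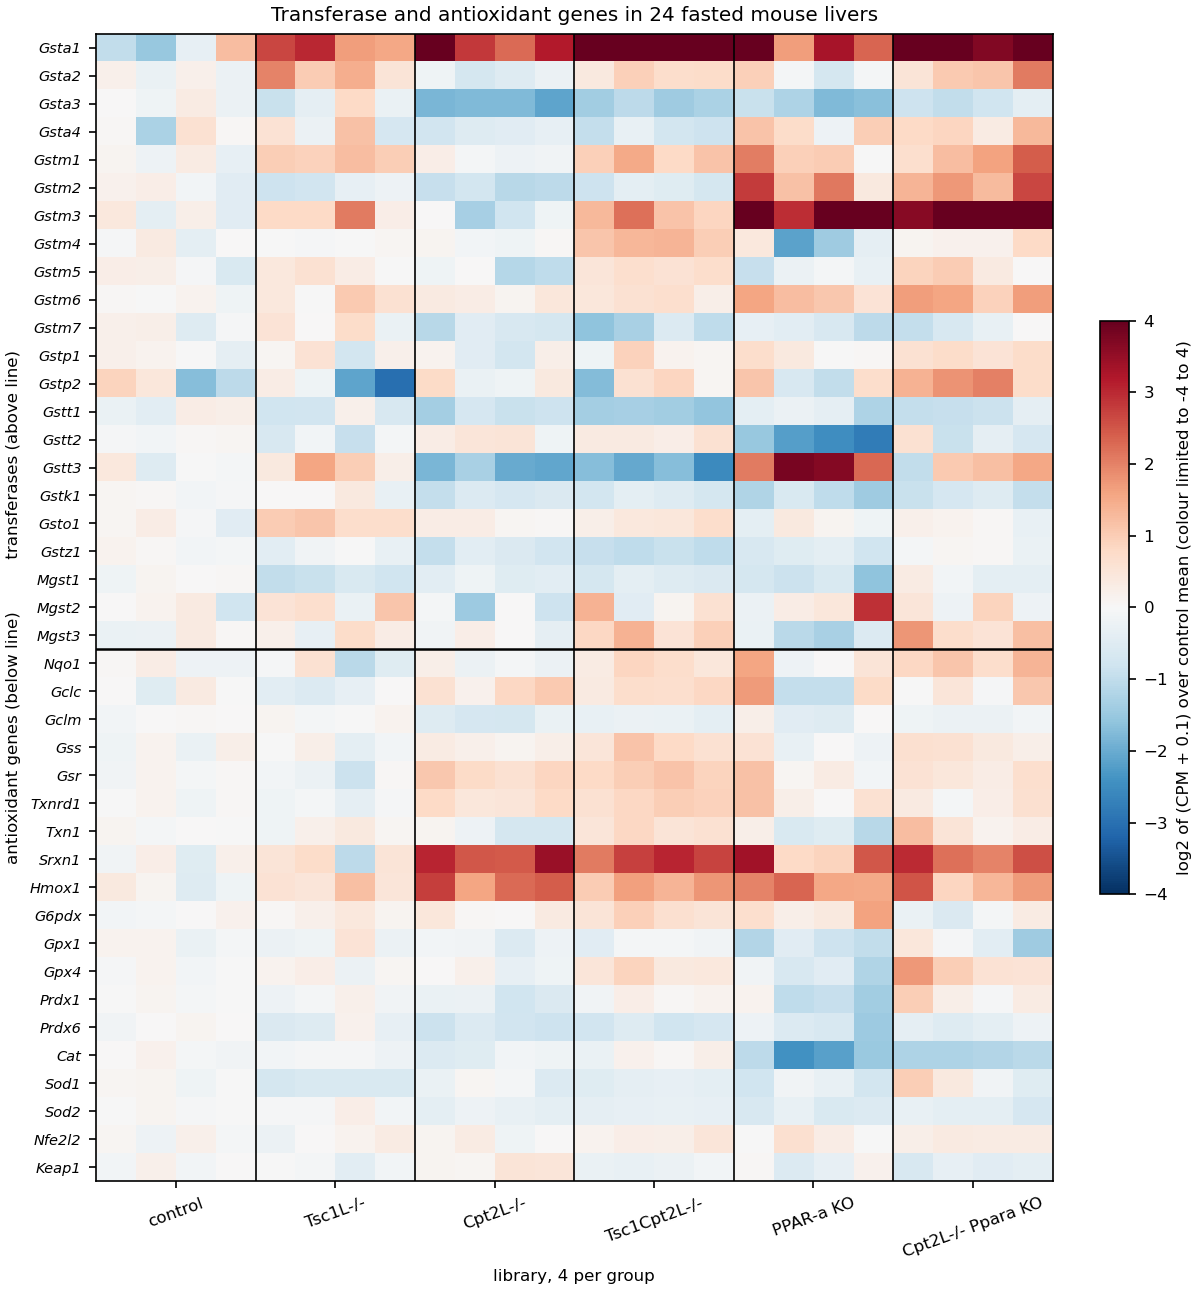
Each row is 1 of the 41 genes and each column 1 of 24 libraries, and the colour is log2 of the CPM (plus 0.1) over the control mean, with colours limited to -4 and 4. Gsta1 and Hmox1 lie above the control libraries in all 5 other genotypes, Srxn1 in the 16 libraries lacking Cpt2 or Ppara, and Gstm3 is highest in the 8 libraries lacking Ppara.

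Loss of Tsc1 alone changed few of these genes. In Tsc1L-/- against control livers, 3 transferases rose and 1 fell, and 1 antioxidant gene fell, so that 5 of 40 were called at an adjusted p under 0.05 in edgeR's quasi-likelihood test. Over all 13641 genes tested in this comparison 6.64% were called, 4.16% higher and 2.48% lower. The median log2 fold change was 0.04 over the 40 genes and 0.01 over all genes.

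Gsta2 was at 13.6, 9.71, 13.5 and 9.99 CPM in control and at 46.6, 24.0, 32.2 and 16.7 CPM in Tsc1L-/- libraries, without overlap, a log2 fold change of 1.36 (SE 0.24, adjusted p = 0.00272). Of the 75-base stretches of Gsta2 transcripts, 36.6% also occur in other genes, mainly Gsta1, Gm10639 and Gm3776, so reads could be shared among them. Gstm1, an abundant mu-class transferase, was at 447, 356, 512 and 325 CPM in control and at 812, 780, 968 and 810 in Tsc1L-/- libraries (log2 fold change 1.04, SE 0.18, adjusted p = 0.00157). Gsto1, of the omega class, was at 115, 133, 105 and 79.6 CPM in control and at 217, 232, 178 and 177 in Tsc1L-/- libraries (log2 fold change 0.90, SE 0.15, adjusted p = 0.00133). All 3 were higher in every Tsc1L-/- library than in every control library. Mgst1 fell from 2170 to 2601 CPM in control libraries to 1232 to 1592, and Sod1 from 823 ± 70.7 CPM (SD, n = 4) in control to 502 to 545, with log2 fold changes of -0.81 (SE 0.13) and -0.63 (SE 0.13). Gsta1 also did not overlap, at 0.344 to 2.90 CPM in control and 3.62 to 10.2 in Tsc1L-/- libraries, but it was not called (log2 fold change 2.43, SE 0.78, adjusted p = 0.0864). Leaving out any 1 library kept all 5 calls, but a fit of all 24 libraries lost those of Gstm1 (adjusted p = 0.0986, over alternatives 5.08e-07 to 0.0986) and Sod1 (adjusted p = 0.173, over alternatives 1.2e-05 to 0.173).

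Cpt2L-/- and DKO livers differed in genes of both classes. In DKO against Tsc1L-/-, a comparison within a set, Tsc1 is lost on both sides and Cpt2 on 1. Here 4 transferases rose and 7 fell, and 10 antioxidant genes rose and 3 fell, 24 of 40 (60%). Over all genes 32.2% were called, 16.9% higher and 15.2% lower. Without DKO replicate 2, 8 of the 40 were called higher and 9 lower. That omission lost the rises of Mgst3 and of the antioxidant genes Nqo1, Txn1, Hmox1, G6pdx and Gpx4. In Cpt2L-/- against control, 1 transferase rose and 8 fell, and 5 antioxidant genes rose and 4 fell, 18 of 40 (45%), where 31% of all genes were called, 16.2% higher and 14.9% lower. DKO against control, also within a set, differs in both Tsc1 and Cpt2. There 8 transferases rose and 8 fell, and 9 antioxidant genes rose and 4 fell, 29 of 40 (72.5%), where 36.4% of all genes were called, 19.3% higher and 17.1% lower. The transferases that rose there include Gsta2, Gsto1 and Gstm1, which rose with Tsc1 loss alone and were not called higher in Cpt2L-/- against control or in DKO against Tsc1L-/-. In DKO against control, limma on log2(FPKM + 1) or log2(FPKM + 0.1) called 21 of the 40 genes higher and 7 lower. The comparisons with control share its libraries, and those of DKO livers share the DKO libraries. The median log2 fold change of the 19 antioxidant genes was 0.49 in DKO against Tsc1L-/-, -0.07 in Cpt2L-/- against control and 0.58 in DKO against control, beside 0.00, -0.02 and 0.02 over all genes.

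Gsta1, an alpha-class transferase at chr9:78230656-78242684 of GRCm38, rose most on the log2 scale. Its 4 control libraries were at 0.543, 0.344, 0.925 and 2.90 CPM, its Cpt2L-/- libraries at 21.3, 9.0, 6.0 and 11.5, and its DKO libraries at 43.9, 172, 75.6 and 29.5 CPM. None of these groups overlapped. The control values rest on 9, 5, 18 and 50 counts. The log2 fold change was 3.31 (SE 0.76, adjusted p = 0.0054) in Cpt2L-/- against control, 6.08 (SE 0.79, adjusted p = 7.59e-05) in DKO against control and 3.65 (SE 0.67, adjusted p = 0.00115) in DKO against Tsc1L-/-. Without control replicate 4 the first 2 values were 4.27 and 7.01, and without DKO replicate 2 the last 2 were 5.38 and 2.95. Of the 75-base stretches of Gsta1 transcripts, 84.7% also occur in other genes, mainly Gm3776 (69.3%), Gsta2 and Gm10639, so its reads could be shared among them. Gm3776 was not found by symbol among the counted genes, so its level could not be set beside that of Gsta1. Gm10639 was at 0.0604 to 0.871 CPM in control and at 11.1 to 32.1 in DKO libraries.

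Several more abundant transferases fell in Cpt2L-/- and DKO livers. Gsta3 was at 895, 786, 1096 and 747 CPM in control, at 246, 259, 259 and 204 in Cpt2L-/- and at 336, 430, 327 and 363 in DKO libraries. It fell by 1.87 on the log2 scale (SE 0.27) in Cpt2L-/- and by 1.26 (SE 0.26) in DKO against control, and by 1.23 (SE 0.26) in DKO against Tsc1L-/-. Both groups lay wholly below the controls. Gstt3, of the theta class, was at 25.9, 13.4, 19.0 and 18.3 CPM in control, at 5.38, 7.67, 4.64 and 4.46 in Cpt2L-/- and at 5.82, 4.53, 5.85 and 3.20 in DKO libraries. It fell by 1.80 (SE 0.30) and 1.97 (SE 0.30) against control and by 2.87 (SE 0.31) in DKO against Tsc1L-/-, all on the log2 scale. Gstt1, the theta-class neighbour of Gstt3, was at 88.7 to 148 CPM in control, 46.6 to 74.1 in Cpt2L-/- and 39.9 to 47.9 in DKO libraries. Gstz1, which takes part in tyrosine breakdown, was at 499 to 589 CPM in control, 280 to 400 in Cpt2L-/- and 265 to 293 in DKO libraries. Gstk1, of the kappa class, was at 92.0 to 105 CPM in control, 50.5 to 68.3 in Cpt2L-/- and 59.7 to 75.2 in DKO libraries. Gstt1, Gstz1 and Gstk1 fell in all 3 comparisons, with log2 fold changes between -1.39 and -0.56. Gstm7 fell by 1.05 (SE 0.25) in DKO against control and by 1.37 (SE 0.25) against Tsc1L-/- on the log2 scale. Gstm2, at 18.9 to 31.2 CPM in control, fell to 11.8 to 15.6 in Cpt2L-/- and 14.5 to 19.7 in DKO libraries, and the DKO call (adjusted p = 0.014) was lost without control replicate 2 (adjusted p = 0.0555, over alternatives 0.00483 to 0.242).

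Among the antioxidant genes the largest rise was that of Srxn1, which encodes sulfiredoxin, the enzyme that repairs overoxidized peroxiredoxins. It was at 69.4, 93.3, 55.4 and 89.1 CPM in control, at 641, 426, 417 and 842 in Cpt2L-/- and at 327, 508, 632 and 504 in DKO libraries. All 8 libraries of Cpt2L-/- and DKO livers lay above all 8 of control and Tsc1L-/- livers, which reached at most 127 CPM. The log2 fold change was 2.92 (SE 0.36, adjusted p = 2.73e-05) in Cpt2L-/- and 2.70 (SE 0.35, adjusted p = 3.54e-05) in DKO against control, and 2.37 (SE 0.35, adjusted p = 0.000124) in DKO against Tsc1L-/-. Hmox1, heme oxygenase, was at 19.4, 15.8, 10.2 and 13.1 CPM in control, at 99.7, 44.1, 70.4 and 78.0 in Cpt2L-/- and at 29.6, 45.6, 37.9 and 50.4 in DKO libraries. It rose by a log2 fold change of 2.32 (SE 0.26) in Cpt2L-/- and 1.5 (SE 0.26) in DKO against control, and 0.77 (SE 0.25) in DKO against Tsc1L-/-.

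The reductases of glutathione and thioredoxin rose too, by smaller amounts. Gsr, glutathione reductase, was at 88.4, 107, 92.3 and 101 CPM in control, at 206, 166, 147 and 176 in Cpt2L-/- and at 168, 192, 216 and 182 in DKO libraries, with log2 fold changes of 0.84 (SE 0.16) and 0.98 (SE 0.16) against control. Txnrd1, the cytosolic thioredoxin reductase, was at 187, 205, 167 and 192 CPM in control, at 257 to 326 in Cpt2L-/- and at 288, 336, 375 and 358 in DKO libraries, with log2 fold changes of 0.64 (SE 0.12) and 0.87 (SE 0.12). Neither gene overlapped between control and Cpt2L-/- or between control and DKO libraries. In DKO against Tsc1L-/- the log2 fold changes were 1.23 (SE 0.16) for Gsr and 1.03 (SE 0.12) for Txnrd1.

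The genes of glutathione synthesis did not move as 1 group. Gclc, the catalytic subunit of the rate-limiting ligase, was at 195 to 356 CPM in control, 310 to 564 in Cpt2L-/- and 355 to 487 in DKO libraries, and rose in Cpt2L-/- and DKO against control and in DKO against Tsc1L-/- (log2 fold changes 0.69, 0.67 and 0.97). All 3 calls were lost in the fit of all 24 libraries (adjusted p = 0.243, 0.248 and 0.0986), and over the alternatives their adjusted p began at 0.00265, 0.00319 and 2.19e-05. Gclm, the modifier subunit of the same ligase, was at 219 to 244 CPM in control and 144 to 195 in Cpt2L-/- libraries, and fell by 0.53 (SE 0.11) on the log2 scale. It was at 177 to 201 CPM in DKO libraries, and that call against control, at an adjusted p of 0.0498, was lost in all 8 omissions of a single library. Gss, glutathione synthetase, was at 53.0 to 75.6 CPM in control, 68.8 to 80.7 in Cpt2L-/- and 90.2 to 142 in DKO libraries. It rose by a log2 fold change of 0.80 (SE 0.15) in DKO against control and 0.85 (SE 0.16) in DKO against Tsc1L-/-, and was not called in Cpt2L-/- against control.

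Prdx6, a peroxiredoxin that uses glutathione, was at 378 to 454 CPM in control, 229 to 289 in Cpt2L-/- and 242 to 291 in DKO libraries, and fell by 0.75 (SE 0.15) and 0.67 (SE 0.15) on the log2 scale. Its call in DKO against Tsc1L-/- was lost without either of 2 Tsc1L-/- and any of 3 DKO libraries. Sod2, the mitochondrial superoxide dismutase, fell by 0.33 in Cpt2L-/- and 0.31 in DKO against control on the log2 scale (SE 0.10 each), and leaving out 1 library lost the first call in 5 of 8 omissions and the second in 2 of 8. In Cpt2L-/- against control, Gstm7, Mgst1 and Prdx1 were likewise called lower and lost the call in 6, 7 and 5 of 8 omissions. Within the set, in DKO against Tsc1L-/-, Mgst1 and Prdx1 had log2 fold changes of 0.29 (SE 0.13) and 0.16 (SE 0.14) that were not called. In DKO against Tsc1L-/-, Gsto1, Mgst3, Nqo1, Gclm, Txn1, Hmox1, G6pdx and Gpx4 were among the 10 genes that lost their call in at least 1 omission, with an adjusted p of 0.228 or less. In DKO against control, the calls of Gsta2 and Gsto1 as higher and of Sod1 as lower were lost in 3, 2 and 7 of 8 omissions.

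**Figure D2:**
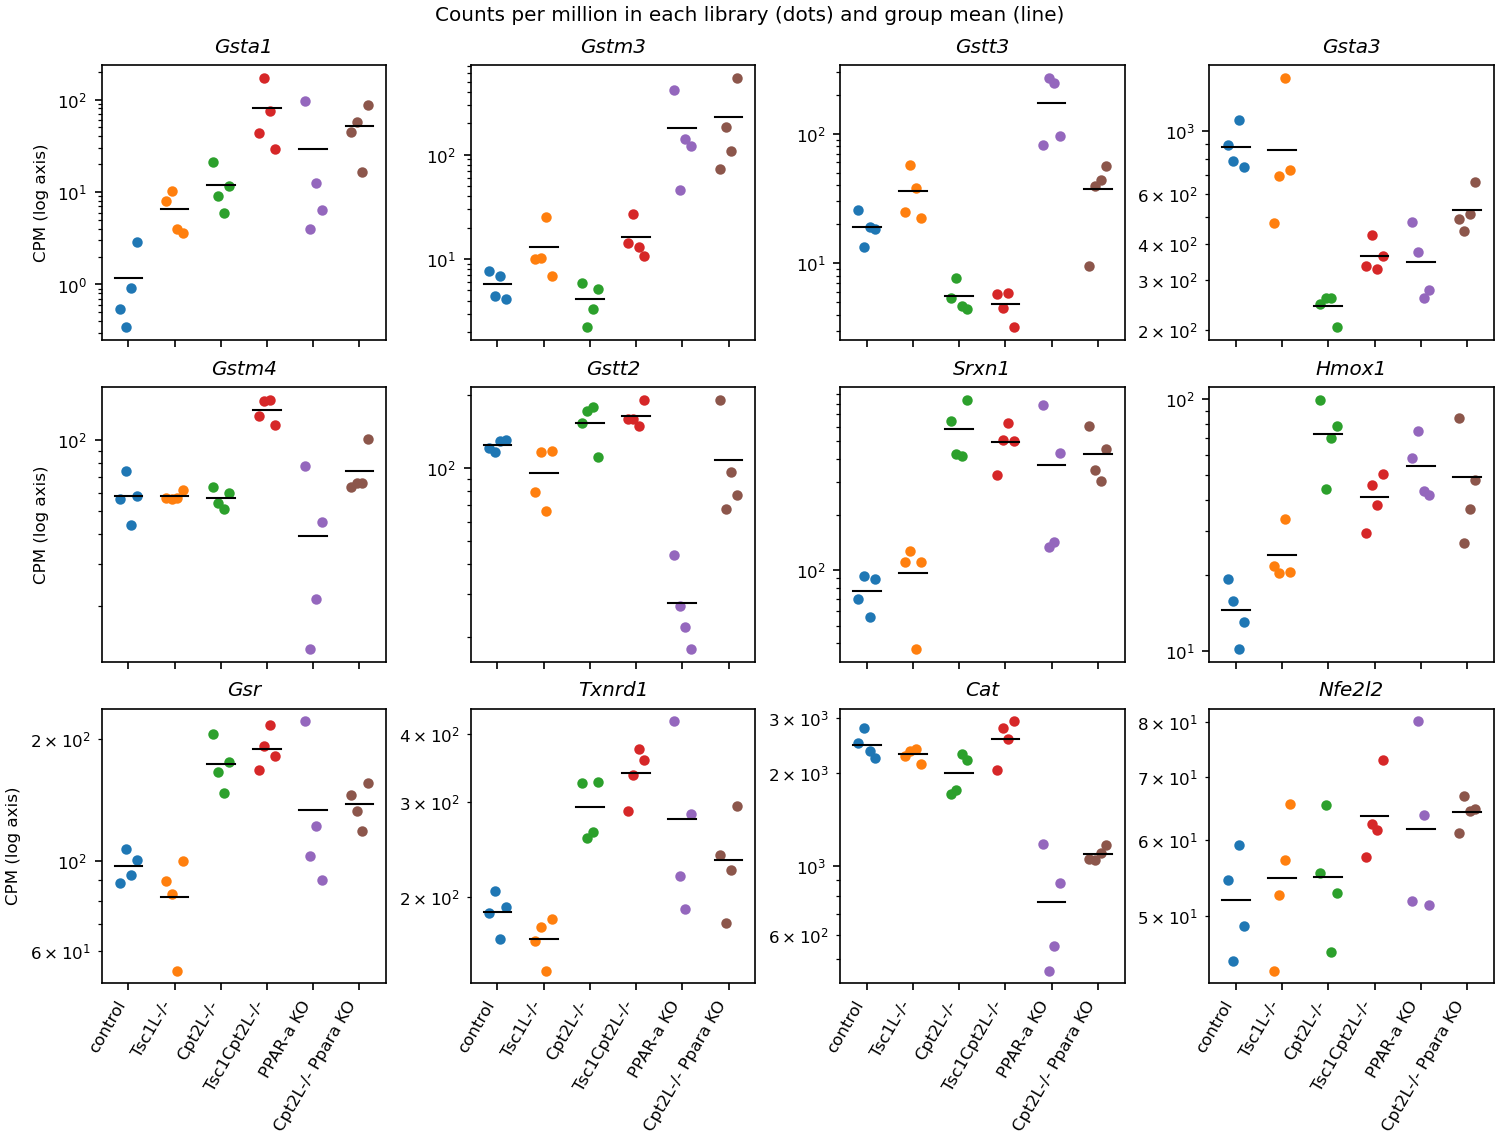
CPM on a log axis for 12 of the genes, with a dot for each of 4 libraries and a line at the mean of each of the 6 groups. Srxn1 is at 55.4 to 93.3 CPM in control and 417 to 842 in Cpt2L-/- libraries, Gstm4 is raised in DKO libraries, and 1 Ppara KO library stands far above the other 3 for Gsta1.

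In DKO against Cpt2L-/- livers, 7 transferases rose, and 4 antioxidant genes rose and 2 fell, 13 of 40 in all, where 18.3% of all genes were called, 10.9% higher and 7.4% lower. This comparison crosses the library sets. The median log2 fold change was 0.23 over the 40 genes and -0.01 over all genes.

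Gstm4, a mu-class transferase, was at 56.2, 74.0, 43.8 and 58.0 CPM in control, at 57.0, 56.1, 56.8 and 61.7 in Tsc1L-/-, at 63.0, 54.3, 51.1 and 59.6 in Cpt2L-/- and at 126, 146, 148 and 116 in DKO libraries. The DKO libraries lay above all 12 others, which overlapped with each other. The log2 fold change was 1.22 (SE 0.13, adjusted p = 2.45e-06) in DKO against control, 1.22 (SE 0.13) against Tsc1L-/- and 1.25 (SE 0.13) against Cpt2L-/-. The interaction of both deletions, the excess of the DKO change over the sum of the single changes, was 1.25 (SE 0.19, adjusted p = 0.00162) on the log2 scale, and it held in all 16 omissions of 1 library. It was lost in the fit of all 24 libraries (adjusted p = 0.301, over alternatives 7.87e-07 to 0.301).

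Gstm3 was at 2.22 to 5.86 CPM in Cpt2L-/- and 10.6 to 26.8 in DKO libraries (log2 fold change 1.99, SE 0.43), and Gsta1 also rose further (2.77, SE 0.64; 2.06 without DKO replicate 2). Gsta2, Gstm1, Gstm5 and Mgst3 rose with log2 fold changes from 1.02 to 1.16. Among antioxidant genes, Txn1, thioredoxin, was at 166, 134, 94.6 and 94.2 CPM in Cpt2L-/- and at 216, 275, 223 and 235 in DKO libraries (log2 fold change 0.98, SE 0.17, adjusted p = 0.000913). Gpx4, which reduces lipid peroxides, rose from 225 to 320 CPM to 366 to 525 (0.65, SE 0.15), with 29.8% of its 75-base stretches also found in Gpx4-ps2. Gss and Prdx1 also rose, and Hmox1 fell by 0.82 (SE 0.25) and Keap1 by 0.51 (SE 0.12) on the log2 scale. The Hmox1 call was lost in 6 of 8 omissions, the Gss call without Cpt2L-/- replicate 3 or DKO replicate 2 (adjusted p = 0.0609 and 0.0706) and the Prdx1 call without Cpt2L-/- replicate 3 (adjusted p = 0.061). In Tsc1L-/- against control, the within-set comparison of Tsc1 loss with Cpt2 present, Gsta2 and Gstm1 rose, and Gstm3, Gstm5, Mgst3, Txn1 and Gpx4 had log2 fold changes of 1.17, 0.36, 0.27, 0.14 and 0.08 that were not called. Those of Gss, Prdx1, Hmox1 and Keap1 were -0.05, -0.05, 0.73 and -0.14 and were not called either. In DKO against control, also within the set, Gstm3, Mgst3, Txn1, Gpx4 and Gss rose (1.5, 0.98, 0.64, 0.58 and 0.80), Hmox1 rose rather than fell, and Gstm5, Prdx1 and Keap1 were not called (0.64, 0.11 and -0.21).

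Of the 40 genes, 2 (5%) had a called interaction of Tsc1 and Cpt2, Gstm4 and Hmox1. Over all genes 2.38% were called, 1.09% higher and 1.28% lower. The median interaction on the log2 scale was 0.34 over the 40 genes and 0.00 over all genes. In edgeR, 17 of the 40 had an unadjusted p under 0.05. The Hmox1 interaction was -1.55 (SE 0.36, adjusted p = 0.0314) on the log2 scale, its DKO level lying below what the single changes add up to, and it was lost in 9 of 16 omissions. The contrast draws on both library sets.

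Loss of Ppara changed transferases of the alpha, mu and theta classes. In Ppara KO against control, which crosses the library sets, 6 transferases rose and 5 fell, and 2 antioxidant genes rose and 3 fell. This made 16 of 40 (40%), where 27.5% of all genes were called, 14.8% higher and 12.7% lower. Without Ppara KO replicate 1, 7 of the 40 were called higher and 15 lower. With DESeq2 in place of edgeR 9 were higher and 13 lower, and without the filter on low counts 4 and 8. In Cpt2 Ppara KO against Cpt2L-/-, within a set, 12 transferases rose, and 2 antioxidant genes rose and 2 fell, 16 of 40 (40%), where 13% of all genes were called, 6.88% higher and 6.1% lower. These comparisons share no library. The median log2 fold change of the 21 transferases tested was 0.01 in the first and 1.14 in the second, beside 0.02 over all genes in each. In the second comparison 8 genes were called without Cpt2L-/- replicate 3 and 8 without Cpt2L-/- replicate 4. The 1679 calls over all genes there became 836, 951, 625 and 638 without Cpt2L-/- replicates 1 to 4, 682 without Cpt2 Ppara KO replicate 2 and 2541 without Cpt2 Ppara KO replicate 4.

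Gstm3, at chr3:107963696-107969283 of GRCm38, had the largest rise among these genes with Ppara loss. It was at 7.73, 4.41, 6.83 and 4.18 CPM in control and at 414, 45.7, 140 and 122 in Ppara KO libraries, a log2 fold change of 4.95 (SE 0.65, adjusted p = 0.00086) and 4.13 without Ppara KO replicate 1. It was at 5.86, 2.22, 3.29 and 5.12 CPM in Cpt2L-/- and at 72.6, 182, 109 and 544 in Cpt2 Ppara KO libraries, a log2 fold change of 5.77 (SE 0.68, adjusted p = 0.0011) and 4.87 without Cpt2 Ppara KO replicate 4. All 8 libraries without Ppara lay above all 16 others, of which the highest was a DKO library at 26.8 CPM. Of its 75-base transcript stretches, 21.6% occur in other genes, among them Gm8834, Gstm2-ps1 and Gstm1.

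Gstm2 was at 182, 58.0, 111 and 33.9 CPM in Ppara KO and at 66.5, 86.4, 61.7 and 164 in Cpt2 Ppara KO libraries, against 18.9 to 31.2 in control and 11.8 to 15.6 in Cpt2L-/- libraries. Its log2 fold changes were 1.90 (SE 0.44) and 2.82 (SE 0.31). Gstm6 was at 28.4 to 57.2 CPM in Ppara KO and 36.5 to 61.5 in Cpt2 Ppara KO libraries, against 16.9 to 21 in control and 20.8 to 26.1 in Cpt2L-/- libraries, with log2 fold changes of 1.15 (SE 0.20) and 1.18 (SE 0.19). Neither gene overlapped between libraries with and without Ppara in either comparison. Gstm1 was at 1690, 798, 835 and 404 CPM in Ppara KO and at 658, 963, 1264 and 2198 in Cpt2 Ppara KO libraries. Its Ppara KO range overlapped the control range, and that call (log2 fold change 1.18, adjusted p = 0.0388) was lost in 7 of 8 omissions, while its rise in Cpt2 Ppara KO (1.65, SE 0.35) was lost without Cpt2L-/- replicate 3 or 4.

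Gstt3 rose from its control level to 81.1, 270, 246 and 95.2 CPM in Ppara KO libraries (log2 fold change 3.16, SE 0.42, adjusted p = 0.00074) and from its lower Cpt2L-/- level to 9.56, 39.5, 44.0 and 56.3 CPM in Cpt2 Ppara KO libraries (2.75, SE 0.45, adjusted p = 0.00476). The Ppara KO libraries were the highest of all 24. Gstt2, in the same theta cluster at chr10:75774115-75834881, was at 121, 116, 130 and 131 CPM in control and at 43.6, 26.8, 22.0 and 17.8 in Ppara KO libraries, a fall of 2.18 (SE 0.25, adjusted p = 0.000368) on the log2 scale. It was at 111 to 179 CPM in Cpt2L-/- and 67.8 to 191 in Cpt2 Ppara KO libraries and was not called there. Gstt3 and Gstt2 thus moved in opposite directions in Ppara KO livers, and Gstt1, which lies between them, was not called (-0.52, SE 0.24, adjusted p = 0.133).

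Gsta3 fell in Ppara KO livers to 479, 376, 258 and 276 CPM, by 1.35 (SE 0.24) on the log2 scale, but rose in Cpt2 Ppara KO livers from the Cpt2L-/- level to 493, 447, 511 and 665 CPM (log2 fold change 1.13, SE 0.20). Gsta1 was at 95.3, 3.94, 12.5 and 6.36 CPM in Ppara KO libraries, a log2 fold change of 4.63 (SE 1.13, adjusted p = 0.0151) that came to 2.66 without replicate 1 of that group and 5.58 without control replicate 4. Gsta2 and Gsta4 rose in Cpt2 Ppara KO against Cpt2L-/- with log2 fold changes of 1.70 (SE 0.31) and 1.38 (SE 0.21). Gsta1, Gstm5, Gstp2 and Mgst3 were called higher there too, and each lost its call in 3 to 7 of 8 omissions. Of the 75-base stretches of Gstp2, 50.1% occur in other genes, mainly Gstp1. Gstk1 fell in Ppara KO against control to 36.8 to 65.2 CPM (-1.03, SE 0.17) and Mgst1 to 796 to 1577 CPM (-0.90, SE 0.23). Gstz1 was called lower (-0.58, SE 0.15), and that call was lost without control replicate 1 (adjusted p = 0.0599). These 3 falls come from a comparison that crosses the library sets. Within a set, in Cpt2 Ppara KO against Cpt2L-/-, none of the 3 was called, with log2 fold changes of -0.07 (SE 0.16) for Gstk1, 0.25 (SE 0.23) for Mgst1 and 0.61 (SE 0.19, adjusted p = 0.0586) for Gstz1, and the 4 Cpt2 Ppara KO libraries all lay above the 4 Cpt2L-/- libraries for Gstz1.

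Cat, whose enzyme works in peroxisomes, was at 2491, 2790, 2345 and 2236 CPM in control and at 1181, 458, 550 and 883 in Ppara KO libraries, a fall of 1.68 (SE 0.30, adjusted p = 0.0031) on the log2 scale. It was at 1704, 1763, 2308 and 2206 CPM in Cpt2L-/- and at 1057, 1047, 1101 and 1171 in Cpt2 Ppara KO libraries, without overlap, and this fall of 0.87 (SE 0.21, adjusted p = 0.0227) was lost without Cpt2L-/- replicate 3 or 4 or Cpt2 Ppara KO replicate 2. Gpx1 fell from 1646 to 2213 CPM in control to 1469 or less in Ppara KO libraries, by 0.83 (SE 0.20) on the log2 scale. Sod2 also fell (-0.53, SE 0.13), and its call was lost without Ppara KO replicate 3 (adjusted p = 0.0599). Within a set, in Cpt2 Ppara KO against Cpt2L-/-, Gpx1 and Sod2 overlapped between the groups and were not called, with log2 fold changes of 0.02 (SE 0.34) and -0.12 (SE 0.16).

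Srxn1 was at 789, 133, 142 and 431 CPM in Ppara KO libraries, all above the controls, with a log2 fold change of 2.29 (SE 0.54, adjusted p = 0.0127) and 1.62 without replicate 1 of that group. Hmox1 was at 58.7, 74.5, 43.2 and 41.7 CPM in Ppara KO libraries (log2 fold change 1.90, SE 0.24, adjusted p = 0.00066). In Cpt2 Ppara KO against Cpt2L-/-, Srxn1 was at 304 to 604 against 417 to 842 CPM and Hmox1 at 26.8 to 84.6 against 44.1 to 99.7 CPM; the groups overlapped and neither gene was called. Nqo1, a quinone reductase, was at 13.8, 10.1, 11.1 and 9.91 CPM in Cpt2L-/- and at 20.9, 25.6, 19.4 and 30.5 in Cpt2 Ppara KO libraries (log2 fold change 1.09, SE 0.20, adjusted p = 0.007). Gpx4 rose there from 225 to 320 CPM to 412 to 937 and lost its call in 5 of 8 omissions.

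**Figure D3:**
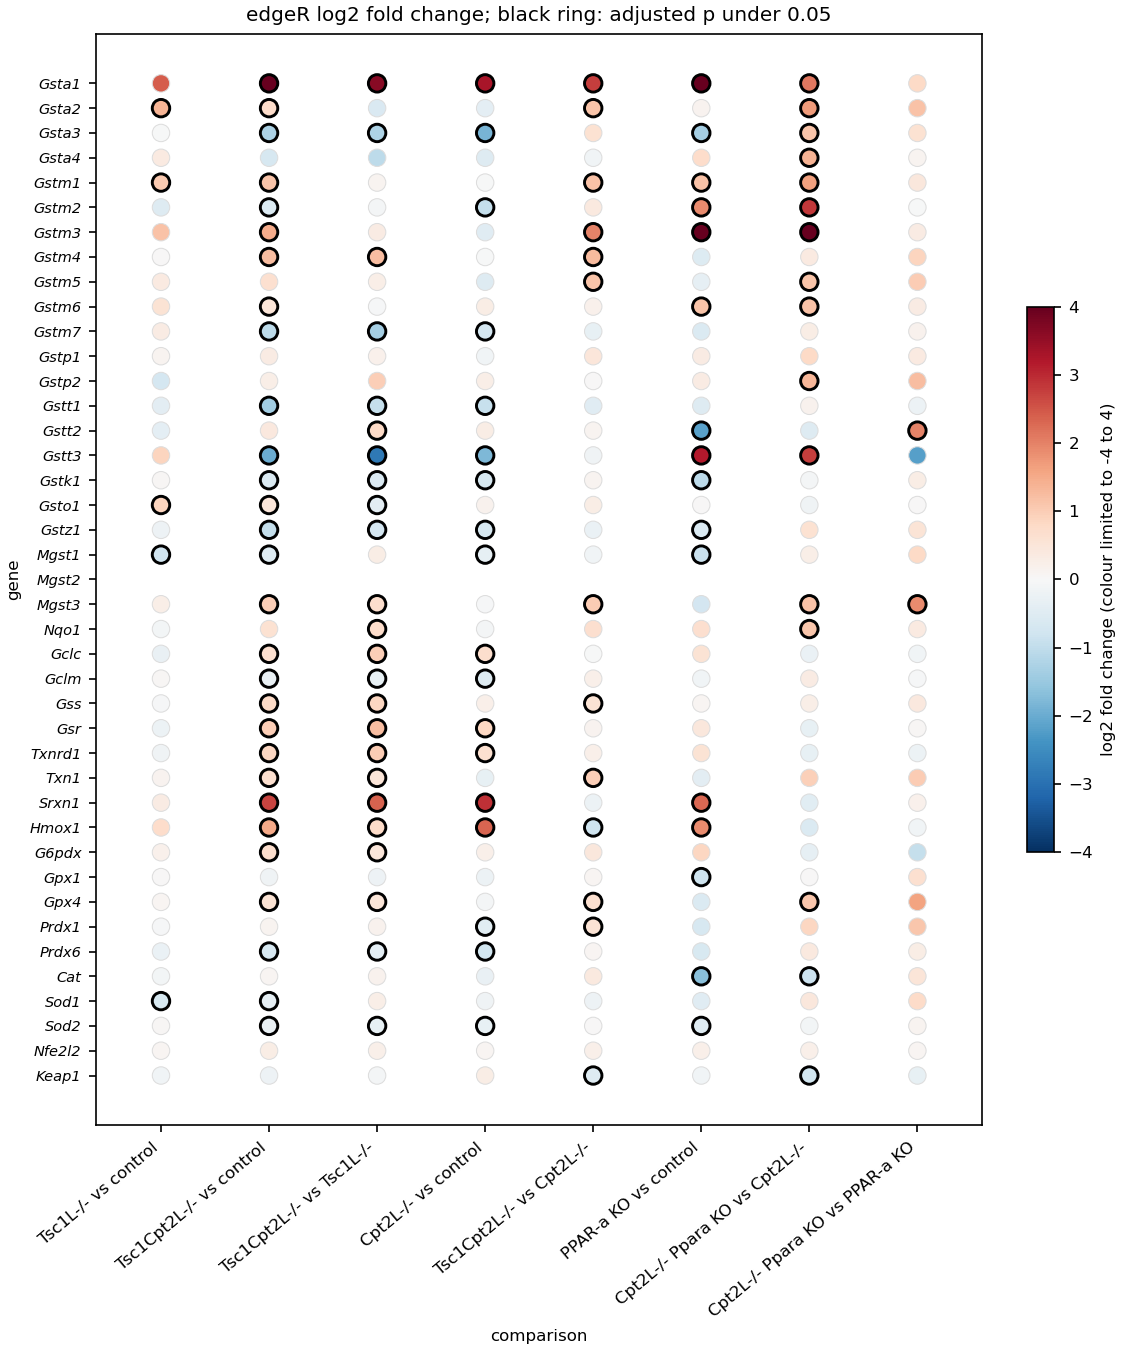
Log2 fold change (colour, limited to -4 and 4) of the 40 tested genes in 8 comparisons, with a black ring where edgeR's adjusted p was under 0.05. The upper rows are the transferases, of which 12 are ringed as higher in Cpt2 Ppara KO against Cpt2L-/- livers. The lower rows are the antioxidant genes, of which 10 are ringed as higher in DKO against Tsc1L-/- livers. Of these 10, Nqo1, Txn1, Hmox1, G6pdx and Gpx4 were not called without DKO replicate 2.

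In Cpt2 Ppara KO against Ppara KO livers 2 of these genes were called, in a test whose count of calls over all genes was unstable. In Cpt2 Ppara KO against Ppara KO, Mgst3 rose from 3.26 to 6.76 CPM to 12.0 to 27.6 (log2 fold change 1.88, SE 0.34, adjusted p = 0.034) and Gstt2 from 17.8 to 43.6 CPM to 67.8 to 191 (1.98, SE 0.38, adjusted p = 0.041), where 0.868% of all genes were called, 0.462% higher and 0.407% lower. Those 111 genes became 2 to 725 on leaving out 1 library, 916 with the replicate number as a block, 2009 with DESeq2 and 3475 in a fit of 16 libraries. Neither overlapped between groups, and each call was lost in 6 of 8 omissions. Gstt3 was at 81.1 to 270 against 9.56 to 56.3 CPM, without overlap, and was not called (log2 fold change -2.20, SE 0.53, adjusted p = 0.0581). Srxn1 and Hmox1 overlapped between these groups.

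The effect of Cpt2 loss differed with and without Ppara for 15 of the 40 genes, 12 with a positive and 3 with a negative interaction, where 24% of all genes were called, 12% in each direction. The negative ones were Srxn1 (-2.72, SE 0.64, adjusted p = 0.00713; -2.04 without Ppara KO replicate 1), Hmox1 (-2.46, SE 0.46, adjusted p = 0.0018) and G6pdx, whose call was lost in 11 of 16 omissions. For Srxn1 and Hmox1 the rise with Cpt2 loss seen against control livers was not repeated in livers without Ppara, where the level was already raised. The largest positive interactions were those of Gsta3 (2.48, SE 0.31, adjusted p = 0.000111) and Mgst3 (1.91, SE 0.40, adjusted p = 0.00375). The calls of Gsta2 and Gstm5 were each lost in 1 of 16 omissions. This contrast also crosses the library sets.

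The 7 mu-class genes lie together at chr3:107895821-108044894 of GRCm38, within 149 kb, yet changed by unlike amounts. In Ppara KO against control, Gstm3, Gstm2, Gstm6 and Gstm1 were called higher, and Gstm5, Gstm7 and Gstm4, at the ends and beside Gstm6, had log2 fold changes of -0.37, -0.59 and -0.55 that were not called. In DKO against control, Gstm1, Gstm3, Gstm4 and Gstm6 rose while Gstm2 and Gstm7 fell. The Gstm6 call there was lost without control replicate 4, DKO replicate 2 or DKO replicate 3 (adjusted p = 0.0623 to 0.0661, over alternatives 0.00765 to 0.0807). Gstm4, Gstm5 and Gstm7 share no 75-base stretch with another gene.

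**Figure D4:**
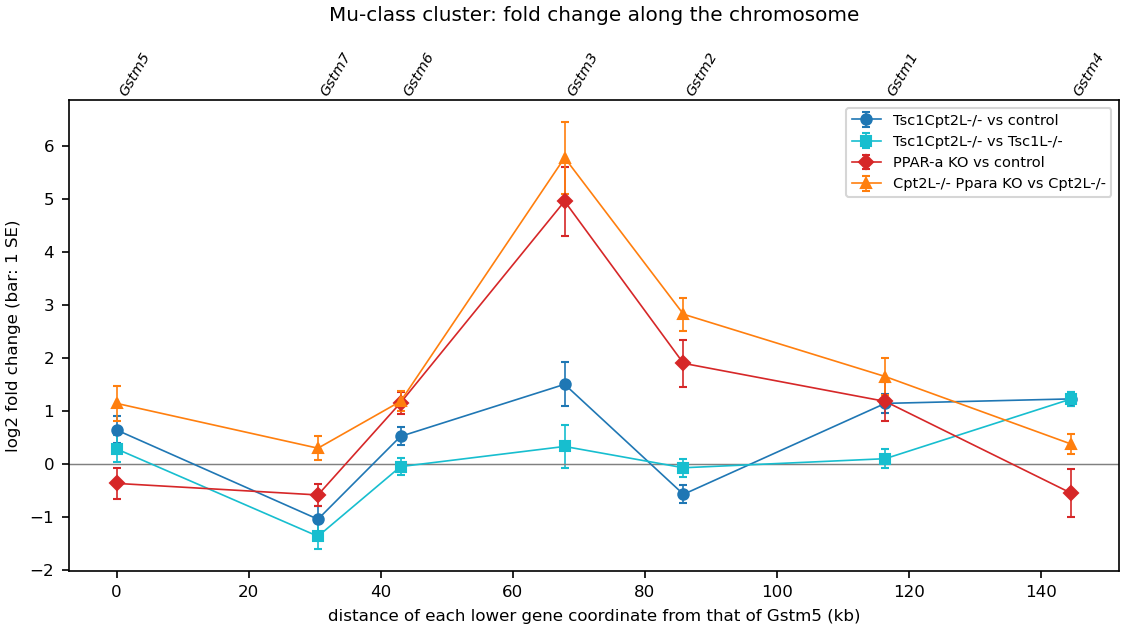
Log2 fold change with 1 SE of the 7 mu-class genes in 4 comparisons, placed by distance in kb from Gstm5. Gstm3 and Gstm2 near the middle reach the highest values in both comparisons of Ppara loss (4.95 and 5.77 for Gstm3), while Gstm7 is lowest in both comparisons of DKO livers.

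Of the regulators, Nfe2l2 was not called in any comparison and Keap1 fell in 2, both against Cpt2L-/- livers. Nfe2l2 was at 54.5, 44.8, 59.4 and 48.8 CPM in control, 43.7 to 65.6 in Tsc1L-/-, 45.8 to 65.4 in Cpt2L-/-, 57.7 to 73.0 in DKO, 51.3 to 80.1 in Ppara KO and 61.1 to 66.9 in Cpt2 Ppara KO libraries. In edgeR's test it was called in none of the 8 comparisons or 2 interactions, with a largest log2 fold change of 0.31 (SE 0.14, adjusted p = 0.0813) in DKO against control. Keap1 was at 56.2 to 70.1 CPM in control, 65.2 to 87.6 in Cpt2L-/-, 50.2 to 57.1 in DKO and 39.3 to 48.7 in Cpt2 Ppara KO libraries. It fell by 0.51 (SE 0.12) in DKO and by 0.76 (SE 0.16) in Cpt2 Ppara KO against Cpt2L-/-, the latter call being lost without Cpt2L-/- replicate 3 or 4 (adjusted p = 0.0564 and 0.0557). Both Keap1 falls share the Cpt2L-/- libraries as reference, and the one in DKO livers crosses the library sets. In DKO against control, within a set, the Keap1 ranges overlapped and the gene was not called. RNA levels do not show the amount or place of the Nrf2 protein.

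Summed over the 22 transferases, control livers held 4196 to 5072 FPKM and Cpt2 Ppara KO livers 5429 to 7869, without overlap. The other groups overlapped with control. Cpt2 Ppara KO livers differ from control in 2 genes and in library set, which cannot be told apart here. Mgst1 made up 39.2% to 48.8% of that sum in control, 24.1% to 31.0% in Tsc1L-/-, 27.5% to 34.3% in DKO and 21.8% to 32.5% in Ppara KO libraries, and in Cpt2L-/- (39.5% to 48.0%) and Cpt2 Ppara KO libraries (22.9% to 42.7%) it overlapped with control. Gstm1 made up 5.59% to 8.17% in control, 13.1% to 17.1% in Tsc1L-/-, 13.1% to 16.6% in DKO, 10.6% to 22.2% in Ppara KO and 8.41% to 24.6% in Cpt2 Ppara KO libraries, all above control, and 7.41% to 9.84% in Cpt2L-/- libraries. Gsta3 made up 5.71% to 8.07% in control and 4.31% to 12.6% in Tsc1L-/- libraries, and lay below control in the other 4 groups, at 1.87% to 2.86% in Cpt2L-/-, 2.67% to 3.21% in DKO, 2.22% to 3.35% in Ppara KO and 2.73% to 3.44% in Cpt2 Ppara KO libraries. These shares were not tested.

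Of 63 further genes of glutathione metabolism and the Nrf2 response, 61 were in the table and 54 or 55 were tested. In Tsc1L-/- against control 7 rose and 4 fell (20% of those tested, beside 6.64% of all genes), in Cpt2L-/- 15 rose and 11 fell (47.3% beside 31%), in DKO 17 rose and 9 fell (47.3% beside 36.4%), and in Ppara KO 8 rose and 13 fell (38.9% beside 27.5%). In DKO against Cpt2L-/- 16 rose and 6 fell (40% beside 18.3%), and in DKO against Tsc1L-/- 19 rose and 5 fell (43.6% beside 32.2%). In Cpt2 Ppara KO against Cpt2L-/- 3 rose and 4 fell, 13% beside 13% of all genes, and against Ppara KO 0 rose and 2 fell, 3.64% beside 0.868%. Gpx3, a secreted glutathione peroxidase, was at 13.6, 16.9, 16.4 and 10.9 CPM in control, at 590, 360, 145 and 185 in Tsc1L-/-, at 10.6 to 25.8 in Cpt2L-/- and at 633, 419, 359 and 636 in DKO libraries. Both groups without Tsc1 lay far above the others, with log2 fold changes of 4.47 (SE 0.47) and 5.16 (SE 0.48) against control. Slc7a11, the cystine importer that feeds glutathione synthesis, had 0 counts in every control library and was at 0.905, 0.761, 1.94 and 9.86 CPM in Cpt2L-/- libraries, of which replicate 4 stood far above the other 3. It was at 1.4, 0.0789, 1.25 and 7.52 CPM in Ppara KO, at 2.13, 1.46, 0.236 and 1.02 in Cpt2 Ppara KO, at 0.0625 or less in Tsc1L-/- and at 0.26 or less in DKO libraries. Apart from the libraries at 0.0789 and 0.236 CPM, its levels divided by library set, and set and genotype cannot be told apart for it. Cbr3, a carbonyl reductase, was at 0.565 to 1.21 CPM in control, 11 to 21.6 in Cpt2L-/- and 4.70 to 16.5 in DKO libraries, with log2 fold changes of 3.88 (SE 0.42) and 3.26 (SE 0.42).

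Pgd, of the pentose phosphate pathway that supplies NADPH, rose in Cpt2L-/- (1.55, SE 0.21), DKO (1.91, SE 0.21) and Ppara KO livers (1.66, SE 0.29) against control on the log2 scale. Chac1, which degrades glutathione, was at 1.52 to 3.39 CPM in control, 4.57 to 29.4 in Tsc1L-/- and 5.99 to 23.9 in Ppara KO libraries, and rose in both groups and in Cpt2L-/- livers. Ptges was at 0.121 to 0.697 CPM in control, at 1.4 to 3.55 in Ppara KO and at 0.00 to 0.465 in Cpt2 Ppara KO libraries, a level of few counts. Nfe2l1, a factor related to Nfe2l2, fell by 1.53 (SE 0.19), Oplah, which recycles 5-oxoproline, by 1.37 (SE 0.23) and Txnip, which inhibits thioredoxin, by 1.18 (SE 0.25) in Cpt2 Ppara KO against Cpt2L-/- on the log2 scale. In DKO against Cpt2L-/-, Maff fell by 1.52 (SE 0.34), and in DKO against Tsc1L-/- Ugdh, which makes the sugar donor of glucuronidation, rose (1.37, SE 0.20).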

How the data were processed

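Liver RNA of 24 libraries, 4 per genotype, was sequenced as single 75-base reads from stranded mRNA libraries. The authors deposited raw counts for 35275 genes under Ensembl identifiers, with coordinates that match GRCm38, and FPKM values, which equal the deposited counts divided by gene length and library total within a relative deviation of 9.1e-07. The submitters' processing notes name Bowtie 0.12.2, TopHat, STAR 2.5, STAR-Fusion, HTSeq 0.6.1, DESeq2 and edgeR, and the builds mm8 and mm9, with no roles; which tool counted reads, and whether by strand, is not given in the sources used here. Gene length in the FPKM values is the authors' own column.

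The members, the further gene lists and the tests were chosen with earlier results of these data known. Groups follow the sample titles. Counts were tested in R 4.3.3 with edgeR 4.0.16 (filterByExpr defaults of 10 counts and 15 in total, TMM, robust quasi-likelihood fit) and adjusted by Benjamini-Hochberg over all genes tested, with a threshold of 0.05. Control, Tsc1L-/-, Cpt2L-/- and DKO libraries entered 1 fit of 13641 genes. Each comparison with a Ppara knockout group used its own 8 libraries (12955, 12936 and 12784 genes), and the interaction of Cpt2 and Ppara used 16 libraries (13615 genes). SEs are the log2 fold change over the root of F. CPM come from edgeR with TMM over 24 libraries.

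Members eligible for values in every library were those called in at least 1 comparison at a log2 change of 0.58 or more in size and a mean of 1 CPM. The top 3 of each class by control FPKM, and Nfe2l2, Keap1, Nqo1, Gclc, Gclm, Hmox1 and Txnrd1, were eligible too. For brevity some of these are given by range. Gsta4, Gstm5, Gstm7, Gstp2 and G6pdx are given by fold change or call alone, and Gstp1 by FPKM. Of the further genes the 3 with the largest called change per comparison were eligible. Shared 75-base stretches were counted over GENCODE M21 transcripts. Gstp1 (29.2%), Sod2 (16.2%), Gstm1 (11.7%) and Gstt3 (11.5%) also share stretches with other genes, beside those named with their results. No library pair within a group was a duplicate over 36 pairs. Alternatives were edgeR with RLE factors, no filter, the replicate number as a block, DESeq2 1.42.0, limma 3.58.1 on log2(FPKM + 1) and log2(FPKM + 0.1), fits of other library sets and each library left out. Figures were drawn with matplotlib 3.10.9.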

Additional observations from a re-analysis of the deposited data

Results flagged for a closer look

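Of 246 groups of 4 libraries examined (41 genes in 6 genotypes), 9 held a library whose gap to its nearest neighbour was large against the range of the group; chance gives about 1 in 20 such groups. Tsc1L-/- replicate 3 stood above the other 3 for Gstt1 at 136 CPM, Hmox1 at 33.6 CPM and Gpx1 at 2938 CPM. Tsc1L-/- replicate 4 stood above its group for Gstm4 at 61.7 CPM and Tsc1L-/- replicate 1 below it for Sod1 at 502 CPM. Cpt2 Ppara KO replicate 4 stood above its group for Gstm4 at 101 CPM and Gstt1 at 92.5 CPM. In Ppara KO, replicate 1 stood apart for Gsta1 at 95.3 CPM and replicate 4 for Mgst2 at 1.98 CPM. Ppara KO replicate 1 was the highest of its group for 26 of the 41 genes and DKO replicate 1 the lowest of its group for 24.

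The effect of Cpt2 loss differed with the Tsc1 genotype, by the interaction term of edgeR, for Gstm4 (1.25, adjusted p = 0.00162) and Hmox1 (-1.55, adjusted p = 0.0314) on the log2 scale. It differed with the Ppara genotype for 15 genes. Among transferases the interactions were 1.55 for Gsta2, 2.48 for Gsta3, 1.52 for Gstm5, 1.67 for Gstt2, 0.98 for Gstk1, 1.21 for Gstz1, 1.16 for Mgst1 and 1.91 for Mgst3. Among antioxidant genes they were 1.36 for Txn1, 1.68 for Gpx4, 1.55 for Prdx1, 1.04 for Prdx6, -2.72 for Srxn1, -2.46 for Hmox1 and -1.2 for G6pdx. Both interactions draw on libraries of both sets, so set and genotype cannot be told apart in them.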

How the results depend on the processing

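Of 140 calls of single genes over the 10 tests, 81 were called under every alternative run, and all 140 kept their sign. With RLE factors and with DESeq2 all 140 were kept. No filter lost 18 and each limma fit 16. The fit of all 24 libraries lost 39 calls and gave 3 called genes for Tsc1L-/- against control (5 in the reported fit), 17 for DKO against control (29), 7 for DKO against Cpt2L-/- (13), 15 for DKO against Tsc1L-/- (24) and 0 for the interaction of Tsc1 and Cpt2 (2; 17 at an unadjusted p under 0.05 in the reported edgeR fit). It gave 13 for Cpt2 Ppara KO against Ppara KO (2), as did a fit of 16 libraries. DESeq2 gave 10, 6 and 10 for Tsc1L-/- against control, that interaction and Cpt2 Ppara KO against Ppara KO, and no filter gave 1 for the interaction. The cause was not tested. The calls lost in the fit of all 24 libraries were those of Gstm1 and Sod1 in Tsc1L-/- against control, of Gstm2, Mgst1, Gclc, Prdx1 and Sod2 in Cpt2L-/- against control, and of Gsta2, Gstm2, Gstm3, Gstm6, Gsto1, Gclc, Gclm, Txn1, G6pdx, Gpx4, Sod1 and Sod2 in DKO against control. In DKO against Cpt2L-/- they were Gsta1, Gstm3, Gss, Hmox1, Gpx4 and Prdx1, and in DKO against Tsc1L-/- Gsto1, Mgst3, Nqo1, Gclc, Gclm, Txn1, Hmox1, G6pdx, Gpx4 and Prdx6. Gstm4 and Hmox1 lost their interaction of Tsc1 and Cpt2, and Gsta1 and Gstp2 their call in Cpt2 Ppara KO against Cpt2L-/-.

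Leaving out 1 library gave 1 to 5 called genes for the interaction of Tsc1 and Cpt2, 8 to 21 for Cpt2 Ppara KO against Cpt2L-/- and 0 to 8 for Cpt2 Ppara KO against Ppara KO, where 14 genes had an unadjusted p under 0.05 in edgeR. It gave 5 to 7 for Tsc1L-/- against control, 14 to 19 for Cpt2L-/- against control, 24 to 28 for DKO against control, 10 to 13 for DKO against Cpt2L-/-, 17 to 22 for DKO against Tsc1L-/-, 14 to 22 for Ppara KO against control and 13 to 21 for the interaction of Cpt2 and Ppara. The count over all genes moved by over 1.5 times for Tsc1L-/- against control (906; 583 without control replicate 3, 466 in a fit of those groups alone, 400 in the fit of all 24 libraries), Cpt2L-/- against control (4235; 2798 with all 24), DKO against Cpt2L-/- (2494; 1428 without DKO replicate 2, 1546 without Cpt2L-/- replicate 3, 1065 with all 24), Ppara KO against control (3559; 2321 without control replicate 4) and the interaction of Tsc1 and Cpt2 (324; 207 and 206 on omitting control replicates 2 and 4, 211 and 199 on omitting Cpt2L-/- replicates 3 and 4, 150 on omitting DKO replicate 2, 752 with DESeq2, 208 with limma on log2(FPKM + 0.1), 65 with all 24). For Cpt2 Ppara KO against Cpt2L-/- it went from 1679 to 2862 with DESeq2 and 3239 with all 24, and for Cpt2 Ppara KO against Ppara KO from 111 to 4311 with all 24, 368 with no filter and 179 and 183 with limma. In DKO against control, limma moved the median log2 fold change of all genes from 0.02 to 0.12 and 0.17.

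Replicate numbers are shared between genotypes, but libraries of the same number did not deviate together (r from -0.255 to 0.165 over the pairs), so the numbers were not taken as a pairing, and in no comparison did every library correlate best with its own number. With the replicate number as a block, 1 gene was called for the interaction of Tsc1 and Cpt2 and 6 for Cpt2 Ppara KO against Ppara KO; the other counts were 5 to 30, each within 1.5 times the reported value.

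At 14470968 counts or more per library, genes under a few CPM, such as Gstp2, Gstm5, Mgst2 and, in control livers, Gsta1 (5 to 50 counts), rest on few counts.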

Other observations

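Several further genes of the same pathways had called changes not described above. Blvrb, biliverdin reductase B, was at 141, 143, 167 and 145 CPM in control, at 72.9 to 126 in Tsc1L-/-, at 87.3 to 126 in Cpt2L-/- and at 159 to 259 in DKO libraries, with a called interaction of Tsc1 and Cpt2 of 1.46 (SE 0.25, adjusted p = 0.00474) on the log2 scale in edgeR. The single deletions lay below control and the DKO libraries reached above it. Aox1, aldehyde oxidase, fell in Tsc1L-/- (-0.88, SE 0.20) and Cpt2L-/- livers (-0.69, SE 0.20) against control, with an interaction of 1.19 (SE 0.28, adjusted p = 0.0308). Txnrd2, the mitochondrial thioredoxin reductase, fell in Cpt2L-/- livers (-0.40, SE 0.11) against control, with an interaction of 0.73 (SE 0.16, adjusted p = 0.0198). These interactions cross the library sets.

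Osgin1 was at 35.7 to 96 CPM in control, at 108 to 213 in Ppara KO and at 22.9 to 71.7 in Cpt2 Ppara KO libraries. It fell by 1.9 (SE 0.37, adjusted p = 0.0432) on the log2 scale in edgeR from Ppara KO to Cpt2 Ppara KO livers. The count of calls over all genes in that comparison was unstable, as described above. Ggct, which breaks down gamma-glutamyl peptides, fell in Tsc1L-/- (-1.12, SE 0.29), Cpt2L-/- (-1.1, SE 0.29) and DKO livers (-1.31, SE 0.30) against control.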
